A study of Mus musculus with 8 samples.

Results

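The colony-stimulating factor (CSF) system consists here of 7 genes that were chosen by their symbols. They are the ligand genes Csf1, Csf2 and Csf3 and the receptor chain genes Csf1r, Csf2ra, Csf2rb and Csf3r. Each of the 7 symbols matched 1 of the 55414 gene identifiers in the deposited count table, and all 7 were among the 16304 genes that passed the filter on low counts. Csf2 and Csf3 reached the minimum of 10 counts in both libraries only in the 2 groups that received LPS.

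The cells were wild-type iBMDM, a line of mouse macrophages that were derived from bone marrow and immortalized, and every group comes from this 1 line. The study asked whether disulfiram (DSF), a drug for alcohol dependence, inhibits signalling from the receptor TLR4 after lipopolysaccharide (LPS), a bacterial cell wall component that TLR4 senses. Messenger RNA was sequenced in 4 groups of 2 libraries. The DSF+LPS group had 5 µM DSF for 0.5 h and then 1 µg/ml LPS for 4 h. The LPS group had the solvent DMSO in place of the drug, the DSF group had water in place of LPS, and the control group had DMSO and water. Nothing in the labels says that libraries 1 and 2 of a group came from different cultures. The p-values therefore speak for the spread among these 8 libraries only, which could be technical.

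CSF1 (M-CSF), CSF2 (GM-CSF) and CSF3 (G-CSF) are secreted proteins that direct the survival, growth and maturation of myeloid cells. CSF1 binds the receptor tyrosine kinase CSF1R, on which most tissue macrophages depend. CSF2 binds its own alpha chain CSF2RA together with the common beta chain CSF2RB, which signals through JAK2 and STAT5, and CSF3 binds a homodimer of CSF3R, a receptor best known from neutrophils. Macrophages that sense LPS are a classic source of CSF2 and CSF3.

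Library totals ran from 17822041 to 21694922 counts. The libraries with the drug held more detected genes, with 23416 and 25081 genes at 1 count or more with DSF+LPS, 20303 and 20324 with LPS, 24298 and 24660 with DSF, and 19779 and 20318 in control. The 10 macrophage markers listed for the check of cell type, among them Cd68, Lyz2 and Adgre1, were all tested and summed to between 1780 and 2190 CPM (counts relative to the size of the library) in every library. That sum hides opposite changes of single markers: 3 rose and 3 fell with DSF relative to control, where 58.1% of all tested genes were called. In DSF+LPS relative to LPS 2 rose and 6 fell, where 65.3% of all tested genes were called. Mpeg1, which encodes perforin-2, averaged 44.9 CPM with DSF+LPS, 284 CPM with LPS, 63.3 CPM with DSF and 196 CPM in control. Fcgr1, the high-affinity IgG receptor gene, averaged 10.0 CPM with DSF+LPS, 51.3 CPM with LPS, 11.3 CPM with DSF and 43.2 CPM in control. Both fell with DSF (log2 fold change -1.63, SE 0.07, edgeR adjusted p = 2.01e-10 for Mpeg1, and -1.93, SE 0.11, edgeR adjusted p = 1.91e-09 for Fcgr1) and in DSF+LPS relative to LPS (-2.66, SE 0.08, edgeR adjusted p = 1.23e-12, and -2.36, SE 0.11, edgeR adjusted p = 1.67e-10). The 3 markers that rose with DSF were Cd14 (1.61, SE 0.10, edgeR adjusted p = 7.48e-09), Cd68 (0.39) and Lyz2 (0.38). The 2 that rose in DSF+LPS relative to LPS were Mertk (1.25) and Cd68 (0.72), whereas Cd14 fell there (-0.89). The sums of the other marker lists were small in all libraries, at 0.0561 to 1.60 CPM for neutrophils (9 genes), 0.898 to 2.77 CPM for dendritic cells (7 genes), 0.189 to 3.09 CPM for lymphocytes (8 genes), 0 to 2.17 CPM for fibroblasts (7 genes) and 1.80 to 4.28 CPM for endothelial and epithelial cells (7 genes). S100a9, Dpp4 and Cd3e had 0 counts in all 8 libraries. The neutrophil sum was 0.662 to 1.09 CPM with DSF+LPS, 0.187 to 0.710 CPM with LPS, 1.11 to 1.60 CPM with DSF and 0.0561 to 0.189 CPM in control. The lymphocyte sum was 1.22 to 3.09 CPM with DSF+LPS, 0.515 to 0.521 CPM with LPS, 1.38 to 2.12 CPM with DSF and 0.189 to 0.449 CPM in control. The endothelial and epithelial sum was 3.41 to 4.28 CPM with DSF+LPS, 2.42 to 2.81 CPM with LPS, 3.04 to 3.92 CPM with DSF and 1.80 to 2.31 CPM in control. The part of the marker changes, these traces and the number of detected genes in the results on the CSF genes was not tested. In bulk RNA, fewer cells that express a gene and less RNA of it per cell cannot be told apart.

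The words rose and fell are used of genes where the adjusted p was under 0.05 in edgeR's quasi-likelihood test, with Benjamini-Hochberg adjustment over all genes tested. LPS alone raised 6 of the 7 CSF genes and lowered none, where 29.0% of all tested genes were called, 15.2% as higher and 13.8% as lower. DSF alone raised 3 and lowered 3, where 58.1% of all genes were called (31.0% higher, 27.1% lower). Between DSF+LPS and LPS all 7 were called, 2 higher and 5 lower, where 65.3% of all genes were called (33.7% higher, 31.6% lower). Between DSF+LPS and DSF 3 were higher and none lower, where 12.1% of all genes were called (5.53% higher, 6.53% lower). Where cells with the drug were set against cells without it, most tested genes were called, so a call alone sets no CSF gene apart there.

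**Figure D1:**
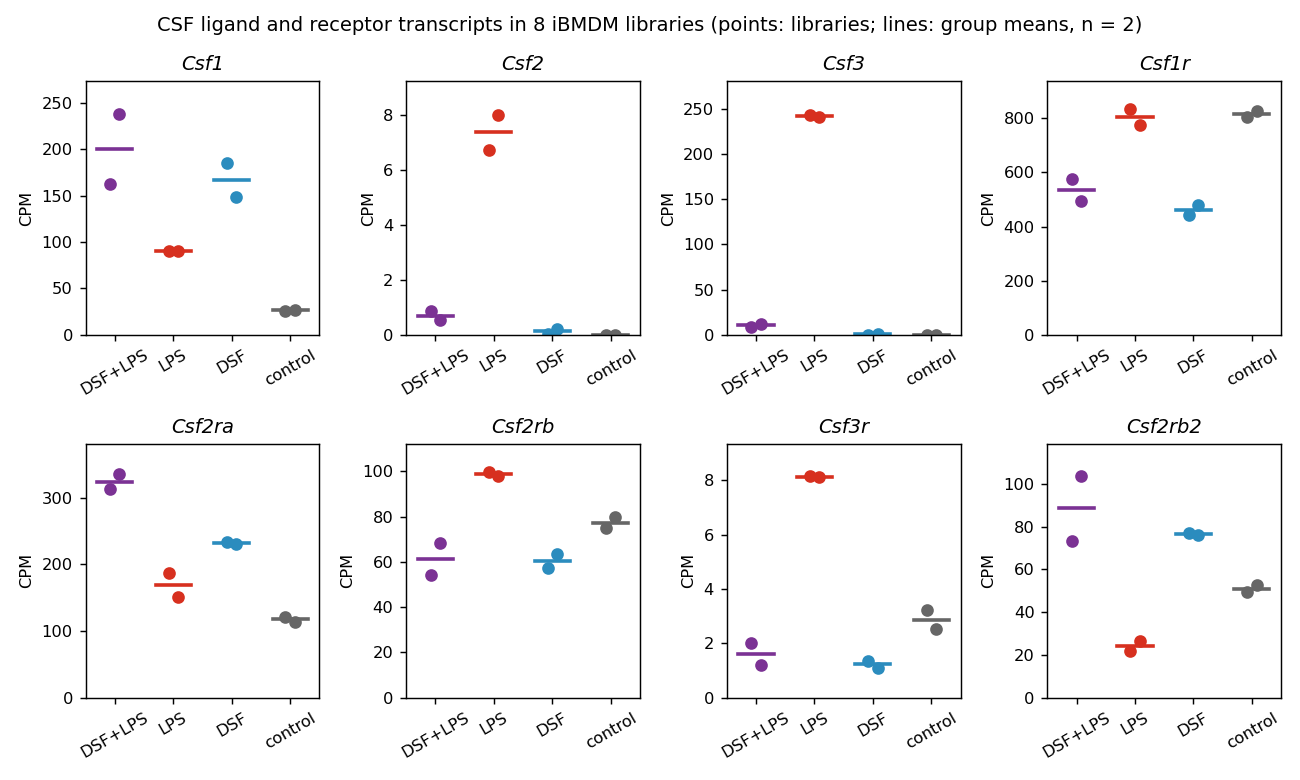
Level (CPM, linear axis from 0) of the 7 CSF genes and of Csf2rb2 in each of the 8 libraries, in groups from DSF+LPS to control; points are libraries and lines are group means (n = 2 each). Csf2, Csf3 and Csf3r were highest with LPS alone, Csf1 and Csf2ra were highest with DSF+LPS, and Csf1r was lowest in the groups with DSF.

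Csf1 (chr3:107741048-107760469 in the GENCODE M21 annotation of GRCm38, minus strand), the gene of the main growth factor of macrophages, was raised by both agents and was highest where they were combined. Its level was 163 and 238 CPM with DSF+LPS, 90.7 and 90.6 CPM with LPS, 185 and 148 CPM with DSF, and 25.5 and 27.2 CPM in control. The libraries with DSF+LPS and with DSF overlapped, and both groups lay above LPS, which lay above control without overlap. The rise was 6.33-fold with DSF (log2 fold change 2.66, SE 0.15, edgeR adjusted p = 2.48e-09) and 3.44-fold with LPS (1.78, SE 0.15, edgeR adjusted p = 3.1e-07). DSF+LPS stood 2.21-fold above LPS (log2 fold change 1.14, SE 0.14, edgeR adjusted p = 5e-06). Against DSF alone the log2 difference of DSF+LPS was 0.26 (SE 0.14, edgeR adjusted p = 0.235). That last value rests on the spread of the DSF+LPS libraries, being 0.50 without replicate 1 of that group and -0.00 without replicate 2. With all 8 libraries but no filter on low counts it passed the threshold (0.26, SE 0.08, edgeR adjusted p = 0.0285).

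Csf2 (chr11:54247271-54249667, GRCm38, minus strand), which encodes GM-CSF, was at 0 counts in both control libraries and per length was the lowest of the 3 ligand transcripts with LPS. It had 17 and 10 counts with DSF+LPS (0.858 and 0.546 CPM), 137 and 167 counts with LPS (6.73 and 7.98 CPM), and 1 and 4 counts with DSF (0.0453 and 0.207 CPM). No group overlapped another. With LPS it was at least 104-fold higher than in control, taking 3 counts over the control group as the floor (edgeR adjusted p = 1.75e-07). It fell 10.3-fold with DSF+LPS relative to LPS (log2 fold change -3.37, SE 0.38, edgeR adjusted p = 3.21e-06), so that 9.54% of the mean LPS level was left. DSF+LPS was still above DSF (log2 fold change 2.48, SE 0.65, edgeR adjusted p = 0.0262). That call was lost without DSF+LPS replicate 1 (2.11, edgeR adjusted p = 0.0869) or without DSF replicate 1 (1.75, edgeR adjusted p = 0.236), and the value was 3.80 without DSF replicate 2. The call for DSF against control (edgeR adjusted p = 0.0377) rests on 5 counts in all, which is at least 1.70-fold higher than control at the same floor, and was lost without DSF replicate 2 (edgeR adjusted p = 0.23), control replicate 1 (0.0985) or control replicate 2 (0.123). More genes with at least 1 count were found in the DSF libraries than in control, as given above, and the part of this in the trace of Csf2 was not tested.

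Csf3 (chr11:98701263-98703629, GRCm38, plus strand), which encodes G-CSF, was the leading ligand transcript with LPS alone and close to 0 without LPS. It had 179 and 219 counts with DSF+LPS (9.03 and 12.0 CPM), 4952 and 5046 counts with LPS (243 and 241 CPM), 8 and 9 counts with DSF (0.362 and 0.465 CPM) and 2 and 9 counts in control (0.103 and 0.392 CPM). LPS lay far above DSF+LPS, which lay above the remaining groups, and the ranges of DSF and control overlapped. Csf3 rose with LPS by 9.83 on the log2 scale (SE 0.21, edgeR adjusted p = 1.22e-13), and this value was 9.25 without control replicate 1 and 11.10 without control replicate 2, since control held so few counts. It fell 23.1-fold with DSF+LPS relative to LPS (log2 fold change -4.53, SE 0.13, edgeR adjusted p = 1.22e-12), which left 4.33% of the mean LPS level. With the drug present LPS still raised it 25.1-fold over DSF (log2 fold change 4.65, SE 0.26, edgeR adjusted p = 4.84e-08). DSF alone gave a log2 difference of 0.65 from control (SE 0.57, edgeR adjusted p = 0.354).

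The 3 ligands thus parted in the DSF+LPS libraries. Csf1 stood at 221% of its LPS level, against 9.54% for Csf2 and 4.33% for Csf3. To compare levels between genes, CPM were divided by the length of each gene's merged exons. Per kilobase, Csf1 had mean levels of 37.9 with DSF+LPS, 17.2 with LPS, 31.5 with DSF and 4.98 CPM per kb in control. Csf3 had 7.43 with DSF+LPS, 171 with LPS, 0.293 with DSF and 0.175 CPM per kb in control. Csf2 had 0.877 with DSF+LPS, 9.19 with LPS, 0.157 with DSF and 0 CPM per kb in control. Of the summed ligand transcripts per kilobase, Csf1 made up 80.5% and 83.1% with DSF+LPS, 8.69% and 8.67% with LPS, 99.1% and 97.9% with DSF, and 98.5% and 94.9% in control. Csf3 made up 16.7% and 15.6% with DSF+LPS, against 87.1% and 86.3% with LPS. LPS alone was the condition in which Csf3 was the leading ligand transcript, and with DSF+LPS it was Csf1.

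**Figure D2:**
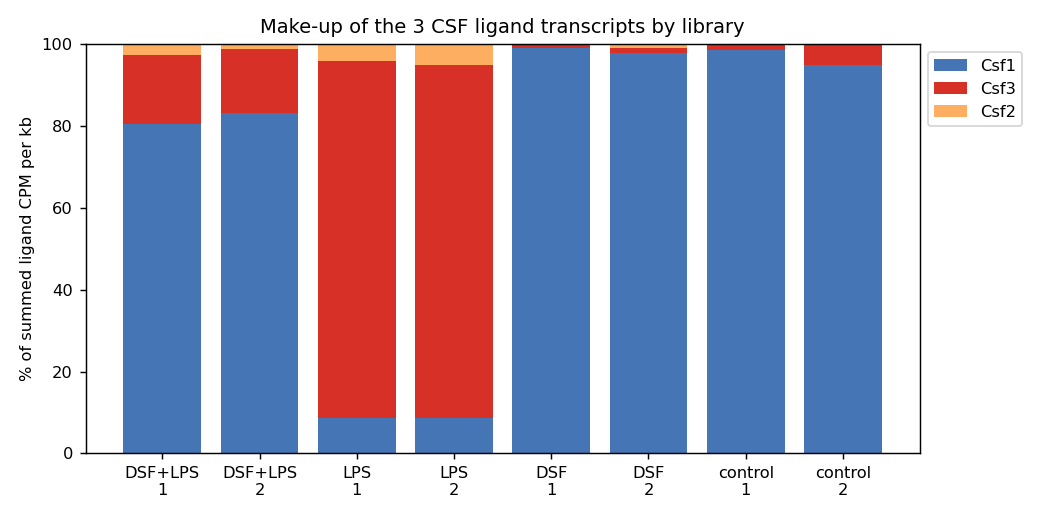
Share (%) of Csf1, Csf3 and Csf2 in the summed CPM per kilobase of the 3 ligand genes, 1 bar per library in groups from DSF+LPS to control. Csf1 makes up over 80% of the bar in the DSF+LPS, DSF and control libraries and under 9% in the LPS libraries, where Csf3 takes over 86%.

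Transcripts of the ligands are short-lived in many cells where their 3′ untranslated regions carry AUUUA repeats, which proteins such as tristetraprolin (Zfp36) bind. The 30-base stretch of each ligand's 3′ untranslated region with the most ATTTA words is printed to show how the 3 differ, from the GENCODE M21 transcripts of GRCm38, written 5′ to 3′ on the sense strand as DNA with the words in capitals.
Csf1: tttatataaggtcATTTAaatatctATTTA
Csf2: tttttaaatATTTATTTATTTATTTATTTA
Csf3: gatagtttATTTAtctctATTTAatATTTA
The Csf2 stretch (bases 230 to 259 after the stop codon) holds 5 overlapping words, and only 0.154% of the 12313 tested genes with such a region have as many in 30 bases. The Csf3 stretch (bases 24 to 53) holds 3, which 2.01% of genes reach, and the Csf1 stretch (bases 2021 to 2050) holds 2, which 16.9% of genes reach. Over the whole region there were 9 words in the 317 bases of Csf2, 6 in the 669 bases of Csf3 and 4 in the 2111 bases of Csf1. The longer word TTATTTATT, found in 6.99% of genes, occurred 4 times in Csf2 and 0 times in Csf3 and Csf1. The regions of Csf2ra, Csf2rb and Csf3r held 0 ATTTA words. A match of letters is a description and not a measurement of decay.

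Of 11 genes listed as factors that bind or degrade such mRNA, 5 rose and 2 fell with LPS (median log2 fold change 0.23, against 0.02 over all genes). With DSF 4 rose and 6 fell (median -0.19, all genes 0.05), and in DSF+LPS relative to LPS 1 rose and 7 fell (median -0.36, all genes 0.04). These all-gene medians, and the shares of genes called that are given above, are the background for every list. With library sizes alone as the scaling, LPS raised 3 and lowered 3. Zfp36 had mean levels of 228 CPM with DSF+LPS, 202 CPM with LPS, 159 CPM with DSF and 35.3 CPM in control, and rose with DSF (log2 fold change 2.17, SE 0.15, edgeR adjusted p = 2.31e-08) and with LPS (2.51, SE 0.15, edgeR adjusted p = 7.24e-09). Zc3h12a, the endonuclease regnase-1, which cleaves cytokine mRNA, had 86.2 CPM with DSF+LPS, 143 CPM with LPS, 20.9 CPM with DSF and 11.4 CPM in control. It rose with DSF+LPS relative to DSF (log2 fold change 2.05, SE 0.09, edgeR adjusted p = 6.41e-09). Hnrnpd, the AU-rich element binding protein AUF1, fell in DSF+LPS relative to LPS to 86.1 CPM, against 182 CPM (log2 fold change -1.08, SE 0.09, edgeR adjusted p = 9.56e-08), and Zfp36l2, a relative of Zfp36, rose to 192 CPM, against 77.2 CPM (1.31, SE 0.09, edgeR adjusted p = 7.99e-09).

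The ligand genes are textbook targets of the transcription factor families NF-kB, AP-1 and NFAT, 17 members of which were followed. Of these, 11 rose and 3 fell with LPS (median log2 fold change 0.77), 11 rose and 5 fell with DSF (median 1.83), and 11 rose and 5 fell in DSF+LPS relative to LPS (median 0.89). Nfkb1, the p105/p50 gene, had mean levels of 243 CPM with DSF+LPS, 549 CPM with LPS, 119 CPM with DSF and 140 CPM in control, and Nfkb2 had 235, 322, 101 and 94.1 CPM in the same groups. LPS raised both (log2 fold change 1.97, SE 0.07, edgeR adjusted p = 2.93e-11 for Nfkb1, and 1.77, SE 0.08, edgeR adjusted p = 3.32e-10 for Nfkb2). The AP-1 gene Fosb had 216 and 94.8 CPM with DSF+LPS, 0.196 and 0.335 CPM with LPS, 93.0 and 145 CPM with DSF, and 0.673 and 0.697 CPM in control. Fos had 110 and 67.4 CPM with DSF+LPS, 4.81 and 5.79 CPM with LPS, 50.6 and 72.9 CPM with DSF, and 5.79 and 5.41 CPM in control. Fos and Fosb were thus high in all 4 libraries with the drug. Neither was called with LPS alone (log2 fold change -0.08, edgeR adjusted p = 0.895 for Fos, and -1.34, edgeR adjusted p = 0.487 for Fosb). Other AP-1 genes of the 17 did rise with LPS alone, namely Fosl1 (log2 fold change 1.62), Junb (1.47), Atf3 (1.33), Fosl2 (0.77), Jund (0.77) and Jun (0.68). The part of these factors in the changes of the ligand genes was not tested. Batf, another AP-1 gene, was a trace transcript that averaged 0.536 CPM with DSF and had 0 counts in control (edgeR adjusted p = 0.00285). It had 0.706 and 0.164 CPM with DSF+LPS and 0.0982 and 0.0956 CPM with LPS. The DSF libraries held more detected genes than control, as given above, and the part of this in the trace of Batf was not tested. In DSF+LPS relative to DSF 8 of the 17 rose and 1 fell, but only 3 rose when DSF replicate 1 was left out. Relb, a partner of the Nfkb2 product, rose there to 118 CPM, against 46.3 CPM with DSF (log2 fold change 1.35, SE 0.08, edgeR adjusted p = 1.11e-07), and Nfkb2 rose too (1.22, SE 0.08, edgeR adjusted p = 3.36e-07).

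Promoter windows from RefSeq (GRCm38.p6), of 250 bases before the start, were at hand for 4 of the 7 genes, Csf1, Csf2, Csf2ra and Csf3r. Those of Csf1 and Csf2ra, the only CSF genes that were higher in DSF+LPS than in LPS, are printed 5′ to 3′ with matches to the NF-kB core in capitals. They are Csf1 at chr3:107760470-107760719 and Csf2ra at chr19:61228419-61228668, both on the minus strand.
Csf1: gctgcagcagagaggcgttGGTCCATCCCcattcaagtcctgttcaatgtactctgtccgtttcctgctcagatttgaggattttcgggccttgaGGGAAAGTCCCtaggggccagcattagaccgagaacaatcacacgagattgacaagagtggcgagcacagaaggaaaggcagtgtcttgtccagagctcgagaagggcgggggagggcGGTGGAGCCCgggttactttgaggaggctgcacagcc
Csf2ra: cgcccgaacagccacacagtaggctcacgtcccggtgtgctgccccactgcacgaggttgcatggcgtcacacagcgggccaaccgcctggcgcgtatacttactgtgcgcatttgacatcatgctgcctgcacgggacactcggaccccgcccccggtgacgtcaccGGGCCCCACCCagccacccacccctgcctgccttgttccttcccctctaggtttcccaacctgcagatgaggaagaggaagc
The NF-kB core was searched as GGGNNNNNCC on both strands. In Csf1 it matched at bases -231 to -222, -155 to -146, -154 to -145 and -37 to -28 before the start, of which those at -155 and -154 overlap, and in Csf2ra at -82 to -73 and -81 to -72, which overlap too. The Csf3r window, of a gene that fell in DSF+LPS relative to LPS, held a match at -129 to -120, so matches were found in genes that changed either way. The Csf2 window held 0, but it is set by a RefSeq start that lies upstream of the GENCODE start. All positions count from the RefSeq start, and the Csf2ra and Csf3r windows reach past the GENCODE start of their genes. This core is loose and is found in 45.8% of the 32851 windows of the same length. The AP-1 word TGANTCA, found in 6.75% of windows, and the antioxidant response core TGACNNNGC, found in 10.2%, matched neither. No match says only that these letters are not in these windows.

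Csf1r (chr18:61100598-61132149, GRCm38, plus strand), the CSF1 receptor and a defining macrophage gene, was lower with DSF whether or not LPS followed. Its level was 576 and 494 CPM with DSF+LPS, 833 and 775 CPM with LPS, 443 and 478 CPM with DSF, and 804 and 826 CPM in control. LPS and control overlapped, DSF+LPS lay below both, and DSF was lowest. It fell to a mean of 461 ± 25.0 CPM with DSF, against 815 ± 15.2 CPM in control (SD, n = 2 each; log2 fold change -0.82, SE 0.08, edgeR adjusted p = 3.59e-07). With DSF+LPS it fell to 535 ± 57.9 CPM, against 804 ± 41.0 CPM with LPS (SD, n = 2 each; log2 fold change -0.59, SE 0.08, edgeR adjusted p = 7.89e-06). The log2 difference with LPS was 0.21 in the presence of the drug (SE 0.08, edgeR adjusted p = 0.0801) and -0.02 in its absence (SE 0.07, edgeR adjusted p = 0.894), the second being 0.03 without LPS replicate 2. The value in the presence of the drug passed the threshold in DESeq2 (0.23, DESeq2 adjusted p = 0.0439) and without the filter on low counts (0.22, edgeR adjusted p = 0.0119). It was 0.35 without DSF+LPS replicate 2. Csf1r shares 14.3% of its 50-base words, matched on either strand, with transcripts of the neighbouring gene Hmgxb3, which had 13811 counts over all libraries. Whether reads there can be assigned to one of the pair may depend on the strand setting of the counting, which was not given.

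The excess of receptor over ligand transcript was smallest in the drug-treated cells. Per kilobase, Csf1r exceeded Csf1 by 3.23 and 1.90 times in the DSF+LPS libraries, 8.40 and 7.82 times with LPS, 2.19 and 2.96 times with DSF, and 28.9 and 27.8 times in control. All 4 libraries with DSF lay below the LPS libraries, and those lay below control.

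Csf2ra (chr19:61223957-61228429, GRCm38, minus strand), the GM-CSF-specific alpha chain, rose with each agent and was highest with both. Its level was 313 and 335 CPM with DSF+LPS, 187 and 151 CPM with LPS, 233 and 230 CPM with DSF, and 121 and 114 CPM in control, and no group overlapped another. The rise was 1.97-fold with DSF (log2 fold change 0.98, SE 0.09, edgeR adjusted p = 3.5e-07) and 1.43-fold with LPS (0.52, SE 0.09, edgeR adjusted p = 0.000379). DSF+LPS exceeded LPS 1.92-fold (log2 fold change 0.94, SE 0.09, edgeR adjusted p = 3.19e-07) and exceeded DSF 1.40-fold (0.49, SE 0.09, edgeR adjusted p = 0.00336). The LPS effect with the drug minus that without it was -0.04 on the log2 scale (edgeR adjusted p = 0.896), with either sign when 1 library was left out (-0.18 without LPS replicate 2, 0.12 without LPS replicate 1).

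Csf2rb (chr15:78325752-78353847, GRCm38, plus strand), the common beta chain of the receptors for GM-CSF, IL-3 and IL-5, fell with the drug. Its level was 54.3 and 68.3 CPM with DSF+LPS, 99.7 and 97.9 CPM with LPS, 57.2 and 63.6 CPM with DSF, and 75.0 and 79.6 CPM in control. LPS was above control, and the groups with DSF overlapped below control. It fell with DSF+LPS relative to LPS (log2 fold change -0.69, SE 0.10, edgeR adjusted p = 3.08e-05) and with DSF relative to control (-0.36, SE 0.10, edgeR adjusted p = 0.00757). The second of these was -0.32 (edgeR adjusted p = 0.0568) without control replicate 2. Its rise with LPS (0.35, SE 0.10, edgeR adjusted p = 0.0142) was lost with library sizes alone as the scaling (0.20, edgeR adjusted p = 0.142) and when any 1 LPS or control library was left out (0.31 to 0.39, edgeR adjusted p from 0.0546 without control replicate 2 to 0.129 without control replicate 1). In DSF+LPS relative to DSF the difference was 0.02 (SE 0.10, edgeR adjusted p = 0.928), and it was -0.08 with library sizes alone.

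Mice carry a neighbouring gene, Csf2rb2 (chr15:78282507-78305721, GRCm38, minus strand), that encodes a beta chain specific to the IL-3 receptor. It is no member of the 7 and is given because it shares 12.3% of the 50-base words of Csf2rb, so reads in those stretches cannot be assigned to one copy. Csf2rb2 had 73.5 and 104 CPM with DSF+LPS, 21.9 and 26.3 CPM with LPS, 77.3 and 76.3 CPM with DSF, and 49.3 and 52.7 CPM in control. The groups with DSF overlapped above control, and LPS lay below it. The gene thus changed opposite to Csf2rb in each comparison where both passed the test. It fell with LPS (log2 fold change -1.08, SE 0.14, edgeR adjusted p = 2.71e-05), rose with DSF (0.59, SE 0.13, edgeR adjusted p = 0.0014) and rose in DSF+LPS relative to LPS (1.88, SE 0.14, edgeR adjusted p = 2.48e-08). The ratio of Csf2rb to Csf2rb2 counts was 0.739 and 0.657 with DSF+LPS, 4.54 and 3.72 with LPS, 0.740 and 0.834 with DSF, and 1.52 and 1.51 in control. The sum of both genes was 128 and 172 CPM with DSF+LPS, 122 and 124 CPM with LPS, 135 and 140 CPM with DSF, and 124 and 132 CPM in control, so the ratio moved far more than the sum.

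**Figure D3:**
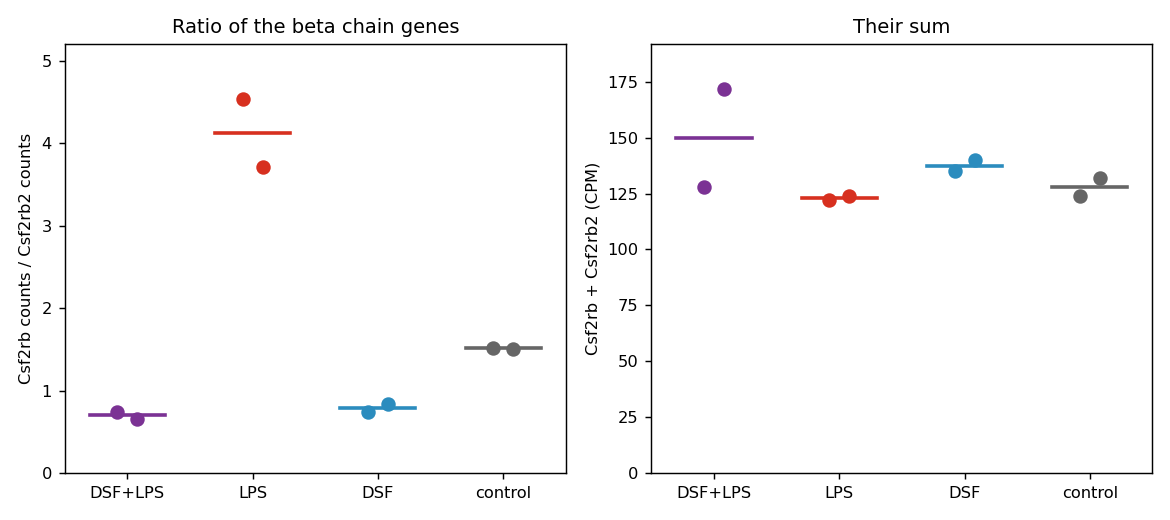
Left, ratio of Csf2rb to Csf2rb2 counts; right, summed level of both genes (CPM); points are libraries, lines group means (n = 2 each), groups from DSF+LPS to control, both axes linear from 0. The ratio is over 3.7 in the LPS libraries and under 0.84 in the 4 libraries with DSF, while the sums lie between 122 and 172 CPM.

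Relative to its beta chain, the alpha chain gained in drug-treated cells. Per kilobase the ratio of Csf2ra to Csf2rb was 14.6 and 12.4 with DSF+LPS, 4.74 and 3.91 with LPS, 10.3 and 9.16 with DSF, and 4.10 and 3.63 in control. The libraries with DSF lay above all those without it, and the ranges of LPS and control overlapped.

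Csf3r (chr4:126024550-126044440, GRCm38, plus strand), the G-CSF receptor, was the scarcest receptor transcript per length and was highest with LPS alone. It had 40 and 22 counts with DSF+LPS (2.02 and 1.20 CPM), 166 and 170 counts with LPS (8.15 and 8.13 CPM), 30 and 21 counts with DSF (1.36 and 1.08 CPM), and 62 and 58 counts in control (3.21 and 2.53 CPM). LPS lay above control, and the groups with DSF overlapped below control. It rose 2.85-fold with LPS (log2 fold change 1.51, SE 0.25, edgeR adjusted p = 0.000318) and fell with DSF (-1.21, SE 0.30, edgeR adjusted p = 0.00323). In DSF+LPS relative to LPS it fell 5.01-fold (log2 fold change -2.33, SE 0.27, edgeR adjusted p = 3.56e-06), which left 19.8% of the LPS level. It shares 10.7% of its 50-base words with other genes, chiefly AC105061.2, which had 8 counts in all. In DSF+LPS relative to DSF the difference was 0.40 (SE 0.33, edgeR adjusted p = 0.486), and -0.04 without DSF+LPS replicate 1. Among the receptor chains, mean levels per kilobase with LPS were 139 for Csf1r, 58.8 for Csf2ra, 13.6 for Csf2rb and 2.26 CPM per kb for Csf3r. With DSF+LPS they were 92.6 for Csf1r, 113 for Csf2ra, 8.43 for Csf2rb and 0.446 CPM per kb for Csf3r, so the mean of Csf2ra exceeded that of Csf1r there.

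**Figure D4:**
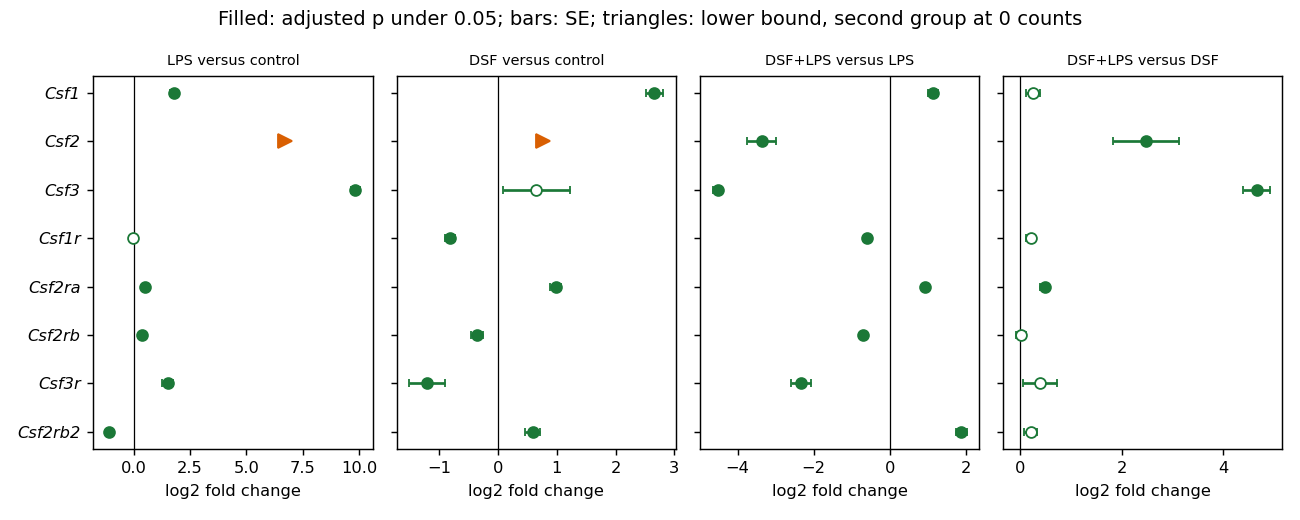
Log2 fold change of the 7 CSF genes and Csf2rb2 in 4 comparisons (first-named group over second; linear axes of different width); bars are SE, filled symbols have an edgeR adjusted p under 0.05, and triangles are lower bounds where the second group had 0 counts. Csf2, Csf3 and Csf3r lie right of 0 with LPS and left of 0 in DSF+LPS relative to LPS, whereas Csf1 and Csf2ra lie right of 0 in both.

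Whether the drug changed the LPS response itself was tested as an interaction, the log2 LPS response with DSF minus that without it. It was called for the 3 ligands, as negative, and for 0 of the 4 receptor chains among the 7 genes, where 19.7% of all genes were called, 7.58% as positive and 12.2% as negative. It was -1.52 for Csf1 (SE 0.20, edgeR adjusted p = 8.46e-05), whose LPS response was 1.20-fold with DSF and 3.44-fold without it. For Csf3 it was -5.18 (SE 0.65, edgeR adjusted p = 4.49e-05), with -4.60 without control replicate 1 and -6.46 without control replicate 2. For Csf2 it was -7.75 (SE 1.64, edgeR adjusted p = 0.00422), a size that depends on how 0 control counts are handled, and the call was lost without DSF replicate 2 (-6.43, edgeR adjusted p = 0.0992). Among the receptors the interaction was 0.23 for Csf1r (SE 0.11, edgeR adjusted p = 0.147), -0.33 for Csf2rb (SE 0.14, edgeR adjusted p = 0.124) and -1.11 for Csf3r (SE 0.42, edgeR adjusted p = 0.0788). Without the filter on low counts it passed for Csf1r (0.26, edgeR adjusted p = 0.0364). It was 0.39 for Csf1r and -0.46 for Csf2rb without DSF+LPS replicate 2, and -1.53 for Csf3r without DSF+LPS replicate 1. For Csf2rb2 it was 1.29 (SE 0.19, edgeR adjusted p = 0.000211).

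The factors that drive CSF receptor genes in myeloid cells include PU.1 (Spi1), RUNX1 and C/EBP proteins, and 11 of 12 listed genes were tested. Of these, 5 rose and 2 fell with LPS (median log2 fold change 0.31), 6 rose and 4 fell with DSF (median 0.59), and 4 rose and 7 fell in DSF+LPS relative to LPS (median -0.43). Spi1 and Runx1, both named here after their values were seen, differed from each other. Spi1 had 221 and 255 CPM with DSF+LPS, 488 and 439 CPM with LPS, 182 and 179 CPM with DSF, and 251 and 237 CPM in control. It rose with LPS (log2 fold change 0.92, SE 0.08, edgeR adjusted p = 3.39e-07), fell with DSF (-0.44, SE 0.08, edgeR adjusted p = 0.000274) and fell in DSF+LPS relative to LPS (-0.96, SE 0.08, edgeR adjusted p = 8.14e-08). Runx1 had 165 and 188 CPM with DSF+LPS, 62.2 and 68.6 CPM with LPS, 157 and 159 CPM with DSF, and 59.6 and 62.6 CPM in control. It rose with DSF (log2 fold change 1.37, SE 0.08, edgeR adjusted p = 5.64e-09) and in DSF+LPS relative to LPS (1.43, SE 0.08, edgeR adjusted p = 2.01e-09). Cebpb had 235 and 340 CPM with DSF+LPS, 115 and 141 CPM with LPS, 181 and 196 CPM with DSF, and 62.4 and 65.4 CPM in control. It rose with DSF (log2 fold change 1.56, SE 0.14, edgeR adjusted p = 2.69e-07). Cebpa averaged 12.6 CPM with DSF+LPS and 2.56 CPM with LPS (log2 fold change 2.29, SE 0.21, edgeR adjusted p = 1.9e-07), and Egr2, an immediate early zinc finger gene, was at 8.17 and 5.78 CPM with DSF+LPS and at 0.246 and 1.00 CPM with LPS. Ets2, an ETS factor downstream of Ras, and Tfec, a macrophage relative of Mitf, rose with LPS (log2 fold change 2.54 with SE 0.10 and edgeR adjusted p = 8.51e-11, and 2.53 with SE 0.16 and edgeR adjusted p = 1.03e-08).

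Of 22 genes that carry signals directly from the receptors, 7 rose and 5 fell with LPS (median log2 fold change 0.01), although with library sizes alone as the scaling 6 rose and 9 fell. With DSF 4 rose and 14 fell (median -0.51), and in DSF+LPS relative to LPS 5 rose and 16 fell (median -0.52). Jak2, the kinase that the beta chain activates, had 11.0 and 11.7 CPM with DSF+LPS, 26.3 and 26.7 CPM with LPS, 8.56 and 8.73 CPM with DSF, and 6.57 and 7.54 CPM in control. It rose with LPS (log2 fold change 1.91, SE 0.13, edgeR adjusted p = 3.23e-08), and its LPS response was smaller with the drug (interaction -1.51, SE 0.19, edgeR adjusted p = 4.54e-05). The Src family kinase gene Lyn fell in DSF+LPS relative to LPS to a mean of 94.5 CPM, against 357 CPM with LPS (log2 fold change -1.92, SE 0.08, edgeR adjusted p = 3.1e-11). With DSF, the cytoplasmic tyrosine kinase gene Fes fell to 22.3 CPM, against 78.9 CPM in control (-1.82, SE 0.11, edgeR adjusted p = 3.39e-09). The adaptor gene Gab2 rose to 115 CPM with DSF, against 37.9 CPM in control (1.60, SE 0.11, edgeR adjusted p = 1.58e-08).

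Of 14 tested inhibitors of CSF receptor signalling, 8 rose and 4 fell with LPS (median log2 fold change 0.53), 5 rose and 7 fell with DSF (median -0.66), and 3 rose and 8 fell in DSF+LPS relative to LPS (median -0.93). Socs3, which restrains the G-CSF receptor, had 42.4 and 27.7 CPM with DSF+LPS, 264 and 242 CPM with LPS, 17.7 and 21.6 CPM with DSF, and 3.98 and 4.62 CPM in control. It fell 7.21-fold in DSF+LPS relative to LPS (log2 fold change -2.85, SE 0.15, edgeR adjusted p = 5.56e-10). Cish, a STAT5 target that restrains cytokine receptors, had 0.555 and 0.600 CPM with DSF+LPS, 7.81 and 6.07 CPM with LPS, 0.0906 and 0.103 CPM with DSF, and 0 and 0.392 CPM in control. Socs2, a relative of Cish that also restrains cytokine receptors, had another pattern, with 1.21 and 0.819 CPM with DSF+LPS, 0.295 and 0 CPM with LPS, 1.09 and 1.24 CPM with DSF, and 0.155 and 0 CPM in control. Its rise in DSF+LPS relative to LPS (edgeR adjusted p = 0.0122) was lost without LPS replicate 2 (edgeR adjusted p = 0.104). Socs1, another feedback inhibitor, averaged 7.15 CPM with DSF+LPS, 8.82 CPM with LPS, 4.99 CPM with DSF and 0.496 CPM in control.

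CSF1R can be cut from the cell surface by a metalloprotease. Adam17, the main sheddase of CSF1R, fell in DSF+LPS relative to LPS to 150 CPM, against 252 CPM (log2 fold change -0.75, SE 0.07, edgeR adjusted p = 1.62e-07), and so did the gene of its maturation factor Rhbdf2, to 122 CPM against 270 CPM (-1.15, SE 0.08, edgeR adjusted p = 7.8e-09). Of the 4 tested genes of this kind, 2 rose and 1 fell with LPS, 1 rose and 2 fell with DSF, and 0 rose and 3 fell in DSF+LPS relative to LPS.

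Genes known to follow CSF receptors were split between directions. Of 10 tested STAT5 and GM-CSF response genes, 6 rose and 3 fell with LPS (median log2 fold change 1.16), 3 rose and 3 fell with DSF (median -0.03), and 1 rose and 5 fell in DSF+LPS relative to LPS (median -0.25). Ccl17, a chemokine that GM-CSF induces in macrophages, had 0 and 0.218 CPM with DSF+LPS and 3.09 and 2.68 CPM with LPS. Ccl22 had 0.151 and 0.0546 CPM with DSF+LPS and 1.28 and 1.58 CPM with LPS. Both fell in DSF+LPS relative to LPS (edgeR adjusted p = 9.84e-05 for Ccl17 and 0.000679 for Ccl22). Only with LPS were they above trace levels, and they passed the filter on low counts through that group. A lower value in any other group was therefore likely beforehand, and these p-values add no support. Pim1, a STAT5 target kinase, averaged 243 CPM with DSF+LPS, 225 CPM with LPS, 108 CPM with DSF and 22.8 CPM in control, and rose with DSF (log2 fold change 2.25, SE 0.09, edgeR adjusted p = 7.88e-11). So did Osm, which encodes oncostatin M (2.84, SE 0.11, edgeR adjusted p = 3.27e-11).

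Of 13 genes of the CSF1 response, 6 rose and 4 fell with LPS (median log2 fold change 0.77), 6 rose and 3 fell with DSF (median 0.15), and 5 rose and 5 fell in DSF+LPS relative to LPS (median 0.02). The immediate early gene Egr1 had 157 and 109 CPM with DSF+LPS, 2.50 and 1.58 CPM with LPS, 95.6 and 121 CPM with DSF, and 0.362 and 0.392 CPM in control, high in all 4 libraries with the drug. It rose with DSF (log2 fold change 8.13, SE 0.29, edgeR adjusted p = 1.62e-11) and in DSF+LPS relative to LPS (6.03, SE 0.22, edgeR adjusted p = 1.38e-11). Ccnd1, the cyclin D1 gene that growth factors induce, fell in DSF+LPS relative to DSF to 73.3 CPM, against 144 CPM (-0.98, SE 0.09, edgeR adjusted p = 6.03e-06), and control had 355 CPM. The chemokine gene Ccl7 had 26.7 CPM with DSF+LPS, 405 CPM with LPS, 19.9 CPM with DSF and 13.9 CPM in control.

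For the 5 members whose group means span at least 1 on the log2 scale, the genes with the most similar profile were sought among 9724 genes, as the smallest root mean square difference in log2 CPM centred over the 8 libraries. Libraries of one group share their condition, so these are descriptions. The log2 CPM carried a prior count of 2, which weighs most on genes with few counts. Csf2 had 0 counts in control and 1 and 4 with DSF, so its low values, and its distances below, depend on that prior. The nearest to Csf1 were Spry2 (0.17), Arid3b (0.22) and Plk2 (0.22). Spry2 had 36.4 and 43.0 CPM with DSF+LPS, 21.2 and 18.9 CPM with LPS, 34.8 and 32.3 CPM with DSF, and 6.83 and 6.02 CPM in control. The nearest to Csf2 were Cxcl10 (0.25), Cd69 (0.57) and Ccl5 (0.59), and the nearest to Csf3 were Il1b (0.67), Il6 (0.76) and Nos2 (0.87). Il6 averaged 3.48 CPM with DSF+LPS, 154 CPM with LPS, 0.468 CPM with DSF and 0.327 CPM in control. The nearest to Csf2ra were Adamts1 (0.08), Pramef8 (0.11) and Il3ra (0.11), the last being the alpha chain of the IL-3 receptor. Among the nearest to Csf3r were Stap1 (0.21) and Phf11d (0.25), and Stap1 had 57.9 CPM with DSF+LPS, 312 CPM with LPS, 55.1 CPM with DSF and 108 CPM in control.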

How the data were processed

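The authors deposited 1 table of raw read counts per gene for the 8 libraries, and all values here come from those deposited counts. The submitters' processing notes name the build GRCm39 and the tool DESeq2 but give no role for either. Aligner, read counter, gene models and strand setting were not given in the sources used here. Of 55414 identifiers, 52081 matched a symbol in GENCODE M21 (GRCm38), which also gave exon lengths. Counts were tested with edgeR 4.0.16 (R 4.3.3): all 8 libraries in 1 quasi-likelihood fit with a mean per group, TMM scaling, filterByExpr defaults (minimum count 10, minimum total count 15), Benjamini-Hochberg over 16304 genes, threshold 0.05. CPM use the TMM-scaled library sizes, and the marker sums the plain totals. SE is the size of the log2 fold change over the square root of F. Floors are 3 counts over a group and cover counting error only.

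The members and gene lists were chosen with earlier results of these data known. Named are the 7 members and, per list and comparison, up to 2 called genes with the largest change, of which some are not reported here; Spi1 and Runx1 were added. Alternatives were library sizes alone, RLE scaling, DESeq2 1.42.0, no filter on low counts, at least 1 CPM in 2 libraries, a replicate block, and leaving out each library.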

Additional observations from a re-analysis of the deposited data

Results flagged for a closer look

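The response to LPS differed between cells given DSF and cells without it for the 3 ligand genes. The log2 difference between the responses was -1.52 for Csf1, -7.75 for Csf2 and -5.18 for Csf3, tested as an interaction in edgeR (adjusted p = 8.46e-05, 0.00422 and 4.49e-05). For Csf1 the LPS response was 1.20-fold with the drug (over DSF) and 3.44-fold without it (over control). For Csf3 the log2 fold change was 4.65 with the drug (over DSF) and 9.83 without it (over control). The direct comparison of DSF+LPS with LPS is another question. There Csf1 was higher and Csf2 and Csf3 were lower, where 65.3% of all genes were called. The interaction value for Csf2 rests on 5 counts with DSF and 0 in control.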

How the results depend on the processing

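Of 35 member results under 14 alternatives, 458 of 489 values kept direction and side of the threshold, and 21 results did so throughout. DSF+LPS relative to LPS had 2 members higher and 5 lower whichever library was left out. Leaving out 1 library gave 3146 to 5545 called genes for LPS with control, 399 to 2406 for DSF+LPS with DSF and 2003 to 3797 for the interaction, with 399 reached without DSF replicate 1. The members called higher in DSF+LPS relative to DSF were 5 without the filter on low counts and 2 to 4 leaving out a library. The interaction had 1 member higher without the filter, 0 to 1 higher and 2 to 4 lower leaving out a library. Signs turned for Csf1r with LPS (0.03), in DSF+LPS relative to DSF for Csf1 (-0.00 to 0.50 leaving out a library), Csf2rb (-0.08 by library size, -0.12 to 0.17 leaving out a library), Csf3r (-0.04 to 0.74) and Csf2rb2 (-0.04 to 0.43), and for the Csf2ra interaction (0.02 by library size, -0.18 to 0.12 leaving out a library). None of those was called with all 8 libraries and the main settings. The cause was not tested.

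Scaling by library sizes alone moved the all-gene median by -0.16 (LPS with control), -0.10 (DSF with control) and -0.11 (DSF+LPS with DSF). The share of calls that were higher was then 30.0% in place of 52.5% for LPS and 17.5% in place of 45.8% for DSF+LPS with DSF. Deviations of libraries with the same replicate number correlated little between groups (-0.119 to 0.0531). With 2 libraries per group this cannot show whether the samples were paired, which the labels do not say. With the replicate numbers as a block the called genes were 4734 for LPS versus control, 9421 for DSF versus control and 10596 for DSF+LPS versus LPS. Depth limits Csf2 and Csf3 without LPS and Csf3r with DSF.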

Other observations

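The remaining ligands and chains that share these receptors were near the detection limit or followed Csf2ra. Il34, the second ligand of CSF1R, had 7 counts over the 8 libraries, Il3 had 2, Il5 had 10 and the IL-5 receptor alpha chain gene Il5ra had 6, and none of them was tested. Il3ra had 48.0 and 49.4 CPM with DSF+LPS, 26.6 and 24.4 CPM with LPS, 33.8 and 34.7 CPM with DSF, and 21.4 and 20.0 CPM in control. It rose with DSF (log2 fold change 0.73, SE 0.10, edgeR adjusted p = 1.86e-05) and in DSF+LPS relative to LPS (0.94, SE 0.10, edgeR adjusted p = 8.26e-07). Its call with LPS alone (0.30, SE 0.10, edgeR adjusted p = 0.0352) was lost under 9 of the alternatives, among them library sizes alone (0.14, edgeR adjusted p = 0.318) and leaving out LPS replicate 1 (0.23, edgeR adjusted p = 0.257).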
